A study of Macaca fascicularis with 16 samples.

Results

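The immediate-early response genes described here are FOS, FOSB, JUN, JUNB, EGR1, EGR2, EGR3, ATF3, NR4A1 and IER2. They were found by matching the NCBI GeneIDs of the series count table to these symbols for Macaca fascicularis, which gave 10 of its 32846 rows, 1 row a gene. All 10 passed the filter on low counts, among 15926 genes tested. RNA sequencing had been done on bulk aortic tissue of young, normal cynomolgus monkeys in 16 libraries, all given the treatment label Baseline. There were 4 libraries from each of the ascending, descending, suprarenal (above the kidneys) and infrarenal (below the kidneys) aorta, numbered 1 to 4 in every region. The labels do not say that libraries come from separate animals or that a number marks an animal, so the p-values measure only the spread between these libraries, which may be technical. No cell type was isolated, so more or fewer cells of a type and more or less RNA per cell cannot be told apart.

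Immediate-early genes are transcribed within minutes of a stimulus such as a growth factor, stretch, injury or stress, without needing new protein synthesis. Signals through MAP kinases, serum response factor with its ELK partners, and CREB switch them on, and unstable messages and induced inhibitors switch them off. Their products are mostly transcription factors: FOS and JUN proteins pair as AP-1, EGR proteins are zinc finger factors, and NR4A1 is an orphan nuclear receptor. In the vessel wall they are known for responses of smooth muscle and endothelium to injury and flow, and in many tissues for a response to the handling of the tissue itself.

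Library totals ran from 14402824 to 21407514 counts. Values below are CPM (counts brought to a common library size) scaled with TMM factors, which correct for a few genes taking a large share of a library. Such levels are compared between libraries and not between genes, because CPM is not corrected for gene length. The TMM factor was 0.736 in infrarenal library 1 and 0.977 to 1.08 in the other 15. That library also stood apart in ribosomal protein genes, whose summed level over 78 genes was 110100 CPM against 33970 to 51690 CPM elsewhere. Smooth muscle markers, which define the aortic wall, were present in every library. Over 7 genes they summed to 57010 CPM in infrarenal 1 and to 13530 to 37040 CPM in the other 15.

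The level of most of these genes varied more with the library number than with the aortic region. The number 1 libraries were high, above all for NR4A1, FOSB, FOS and ATF3, and the pattern recurred in separate regions of the vessel. Between the 4 regions no member passed the test, and EGR3 came nearest, at its lowest mean in the infrarenal aorta.

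FOS, the AP-1 partner of JUN and the classical reporter of a recent stimulus, had 521, 528, 943 and 411 CPM in number 1 of the ascending, descending, suprarenal and infrarenal aorta. In the same order it had 174, 40.2, 103 and 104 CPM in number 2, 246, 627, 348 and 115 CPM in number 3, and 83.5, 80.1, 36.2 and 126 CPM in number 4. Number 1 was highest in 3 regions and descending 3 was highest in its own, while numbers 2 and 4 reached at most 174 CPM. The highest library held 26.1 times the level of the lowest, and both were suprarenal.

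FOSB, a close relative of FOS, had 70.8, 83.5, 156 and 25.4 CPM in number 1, again from ascending to infrarenal. It had 21.0, 4.94, 8.61 and 4.03 CPM in number 2, 18.5, 45.6, 47.7 and 7.27 CPM in number 3, and 4.65, 9.26, 8.39 and 20.1 CPM in number 4. Number 1 was the highest library in 4 of 4 regions, although infrarenal 1 lay below suprarenal 3 and descending 3. The 38.6-fold span over 16 libraries was the widest of the 10 genes.

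JUN, the most common partner of FOS proteins in AP-1, had 1454, 1696, 1931 and 554 CPM in number 1. It had 870, 649, 821 and 442 CPM in number 2, 829, 994, 531 and 368 CPM in number 3, and 347, 602, 560 and 560 CPM in number 4. The 3 number 1 libraries from outside the infrarenal region were the 3 highest of all 16, and the 4 infrarenal libraries lay in a narrow band of 368 to 560 CPM. JUNB, a JUN relative that can oppose JUN, had 197, 151, 254 and 273 CPM in number 1 and 80.2, 45.4, 67.8 and 81.3 CPM in number 2. It had 114, 188, 248 and 83.2 CPM in number 3 and 231, 89.2, 81.4 and 107 CPM in number 4. Ascending 4 was the highest ascending library for JUNB and descending 3 the highest descending one, so number 1 led in 2 of 4 regions.

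EGR1, a zinc finger factor known as a regulator of vascular injury genes, had 682, 897, 1214 and 271 CPM in number 1. It had 239, 91.2, 113 and 148 CPM in number 2, 406, 1169, 683 and 138 CPM in number 3, and 139, 139, 99.7 and 160 CPM in number 4. Descending 3 was nearly as high as suprarenal 1, and the 4 infrarenal libraries spanned 138 to 271 CPM. EGR3, a zinc finger relative of EGR1, had 15.4, 8.003, 13.7 and 5.40 CPM in number 1 and 7.71, 7.71, 4.78 and 2.83 CPM in number 2. It had 6.24, 15.6, 11.2 and 1.90 CPM in number 3 and 5.37, 11.4, 12.6 and 4.53 CPM in number 4. The infrarenal library was the lowest of its number in 4 of 4 numbers, but the infrarenal range overlapped the ascending and suprarenal ranges. EGR2, a further family member best known from Schwann cells, ran from 0.617 CPM in infrarenal 1 to 3.65 CPM in suprarenal 1, on the smallest counts of the 10 genes.

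ATF3, a stress-induced factor that can pair with JUN, had 521, 419, 501 and 70.8 CPM in number 1. It had 150, 71.8, 67.7 and 30.3 CPM in number 2, 122, 172, 97.7 and 23.5 CPM in number 3, and 41.1, 94.7, 71.6 and 81.2 CPM in number 4. The number 1 libraries of the 3 upper regions stood above all others, whereas infrarenal 1 lay below infrarenal 4.

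NR4A1, the orphan nuclear receptor also called NUR77, had 367, 240, 381 and 605 CPM in number 1. It had 74.9, 21.0, 38.1 and 47.4 CPM in number 2, 112, 167, 196 and 93.6 CPM in number 3, and 92.6, 62.0, 31.5 and 63.8 CPM in number 4. All 4 number 1 libraries lay above the other 12, which held for none of the other 9 genes. IER2, a small nuclear protein induced with FOS, had 132, 102, 140 and 158 CPM in number 1 and 58.9, 42.6, 47.2 and 54.8 CPM in number 2. It had 67.0, 104, 157 and 62.8 CPM in number 3 and 86.0, 40.1, 40.5 and 64.6 CPM in number 4, a span of 3.93-fold and the narrowest of the 10.

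**Figure D1:**
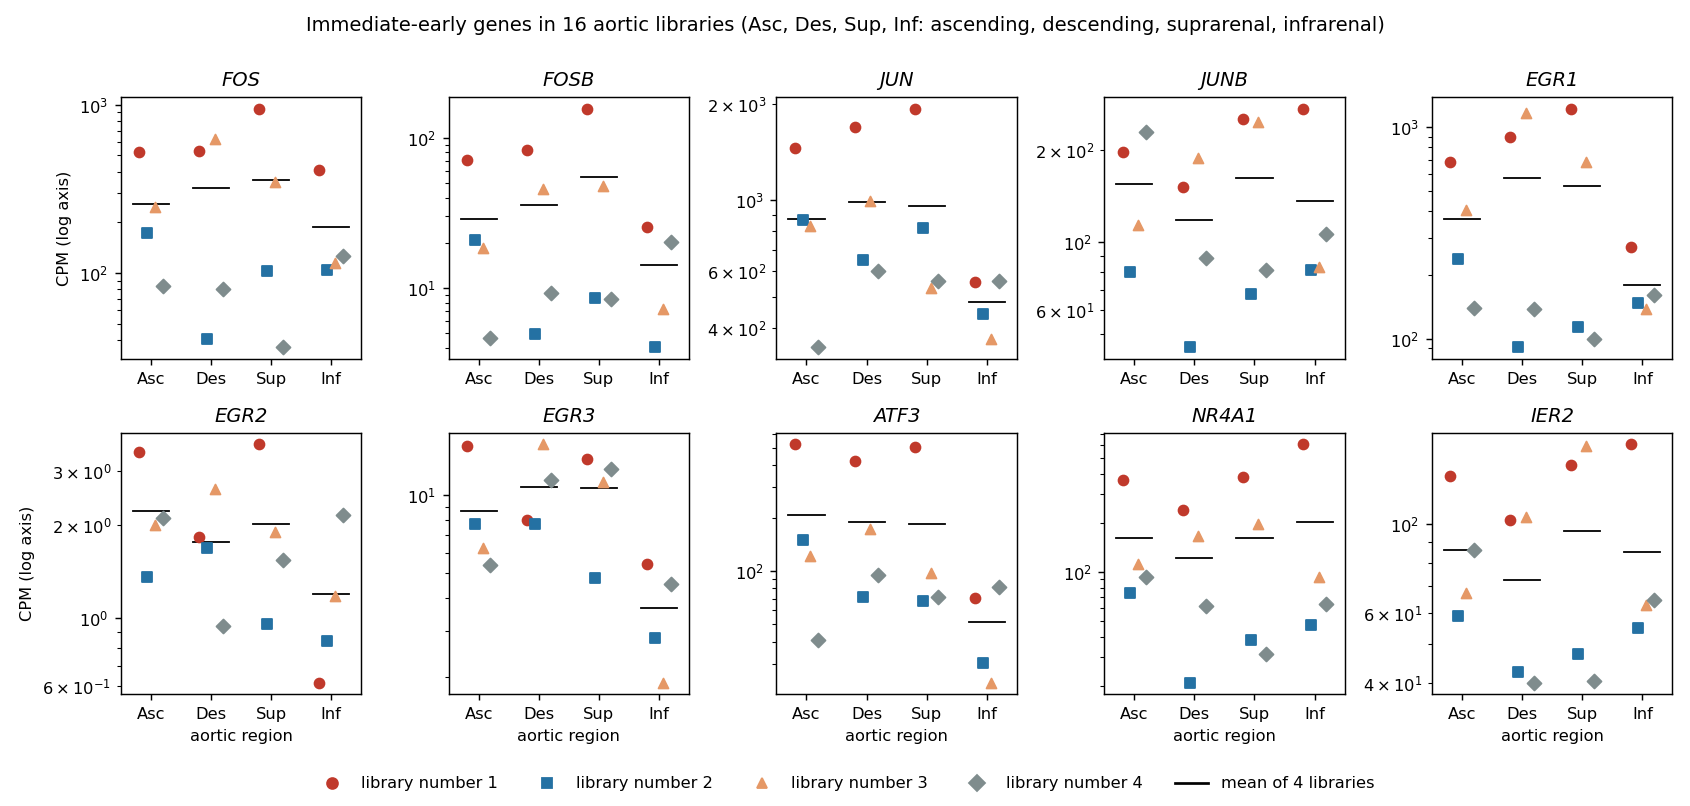
CPM of each of the 10 genes by aortic region, on a log axis, with 1 point a library marked by its number. The number 1 points of NR4A1 sit between 240 and 605 CPM, above all 12 others, while the infrarenal points of EGR3 run from 1.90 to 5.40 CPM and overlap the lowest ascending and suprarenal points.

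The libraries were compared between numbers in a model with region and number. Of the 10 genes, 5 differed among the 4 numbers, where 4.46% of all genes tested were called (adjusted p under 0.05, quasi-likelihood F test of edgeR over all genes). These were NR4A1 (adjusted p = 0.00235), FOS (0.0277), IER2 (0.0423), ATF3 (0.0476) and EGR1 (0.0483). The adjusted p was 0.0635 for FOSB, 0.0810 for JUN, 0.0848 for JUNB, 0.438 for EGR3 and 0.584 for EGR2. The call of NR4A1 held whichever of the 16 libraries was left out. The count fell to 1, NR4A1, without ascending 1, suprarenal 1, suprarenal 2, suprarenal 4, descending 4 or infrarenal 2. It was 2 with library totals alone and 8 with DESeq2, settings that called 624 and 2394 of all 15926 genes.

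To give the difference a direction, each number was set against the mean of the other 3, a contrast added after the values had been seen. In number 1, 7 of 10 genes were called higher, and 2.45% of all genes were. NR4A1 was 5.35-fold higher (log2 difference 2.42, SE 0.30, edgeR adjusted p = 0.00110), with a mean of 398 ± 152 CPM (SD, n = 4) in number 1 against 45.3 ± 22.5, 142 ± 47.5 and 62.5 ± 25.0 CPM in numbers 2, 3 and 4. FOSB was 5.16-fold higher (log2 2.37, SE 0.52, adjusted p = 0.0268) and FOS 4.21-fold higher (log2 2.07, SE 0.42, adjusted p = 0.0196). The FOS means were 601 ± 235, 105 ± 54.6, 334 ± 217 and 81.4 ± 36.6 CPM in numbers 1 to 4, so number 3 lay between.

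ATF3 was 3.96-fold higher in number 1 (log2 1.99, SE 0.39, adjusted p = 0.0170), and EGR1 3.15-fold (log2 1.65, SE 0.41, adjusted p = 0.0426). JUN was 2.13-fold higher (log2 1.09, SE 0.25, adjusted p = 0.0304) and IER2 2.01-fold (log2 1.01, SE 0.23, adjusted p = 0.0331). The other 3 genes had positive log2 differences that did not pass, of 0.98 for JUNB (adjusted p = 0.0810), 0.59 for EGR3 (0.267) and 0.49 for EGR2 (0.447). The 95% interval of the EGR3 difference was -0.07 to 1.25 and that of EGR2 -0.33 to 1.31, on the log2 scale. The median log2 difference over the 10 genes was 1.37, beside 0.00 over all genes tested.

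The count of 7 depended on single libraries. Over the 16 fits that each left out 1 library, the call was kept in 16 by NR4A1, 14 by FOS, 14 by ATF3, 10 by FOSB, 7 by JUN, 6 by IER2 and 5 by EGR1. It was 1, NR4A1, without ascending 1 or suprarenal 1, and 3 without descending 1, descending 2, descending 4 or suprarenal 2. It was 4 without infrarenal 2 and with library totals alone, where JUN, EGR1 and IER2 no longer passed. Without infrarenal 1, the library with the high ribosomal protein genes, 6 genes were called and IER2 was not (adjusted p = 0.102).

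Within regions, number 1 minus the mean of the other 3 numbers was positive in 4 of 4 regions for 8 of the 10 genes, the exceptions being EGR2 and EGR3. For NR4A1 the 4 log2 differences were 1.99, 1.99, 2.62 and 3.201 from ascending to infrarenal. For FOS they were 1.77, 2.06, 3.11 and 1.84, and for JUN 1.21, 1.22, 1.63 and 0.30. EGR3 had -0.47 in the descending aorta and EGR2 had -0.94 in the infrarenal aorta.

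The other numbers gave fewer calls. Each was set against a mean that includes the high number 1 libraries, which lowers its differences. These contrasts are therefore not independent of that of number 1. In number 2 only NR4A1 was called, and it was lower (log2 -1.83, SE 0.36, edgeR adjusted p = 0.0288), where 0.647% of all genes were called lower. All 10 differences were negative there, with a median of -1.08. With DESeq2 5 of the 10 were called lower, beside 353 of all 15926 genes. The NR4A1 call in number 2 was lost when any 1 of the 4 number 2 libraries was left out. In number 3 (background 1.50% called) and number 4 (background 0.923%) 0 of 10 genes were called with edgeR. There 1 and 5 genes had an unadjusted p under 0.05, beside 15.67% and 10.03% of all genes. DESeq2 called 0 in number 3 and 3, FOS, EGR1 and NR4A1, in number 4. Among all 15926 genes DESeq2 called 975 in number 3 and 538 in number 4. The median log2 difference was 0.40 in number 3, with 7 of 10 positive, and -0.62 in number 4, with 2 of 10 positive.

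**Figure D2:**
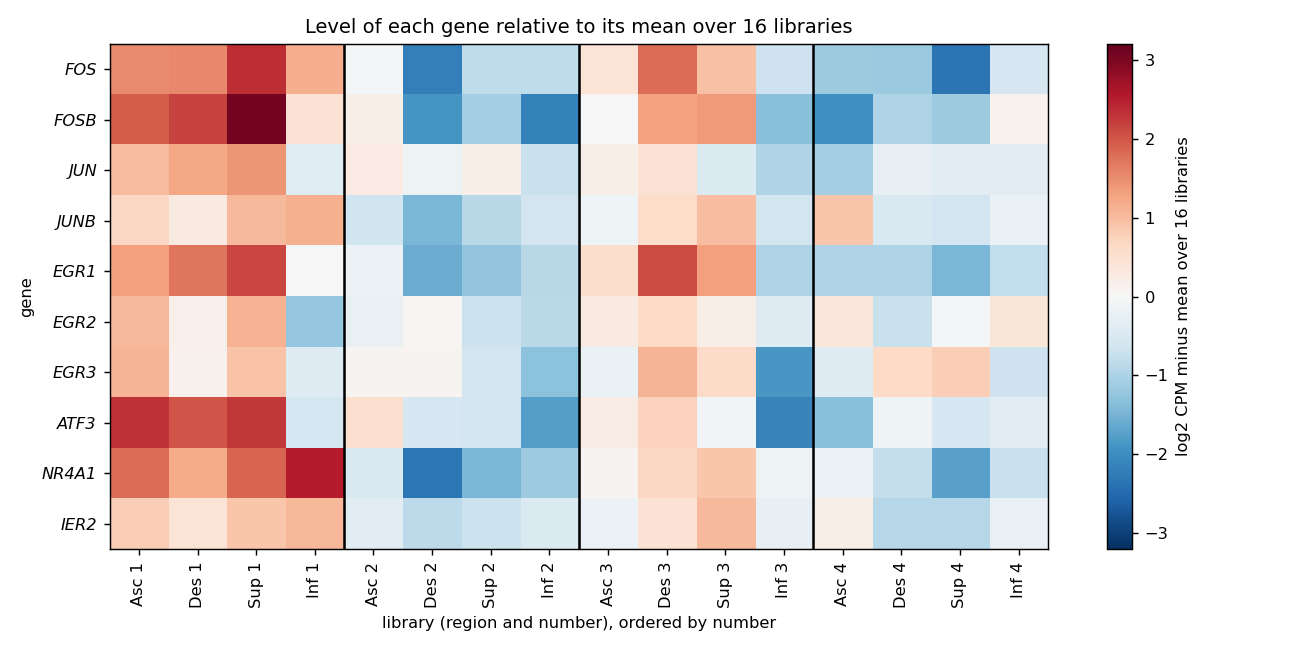
Log2 CPM of the 10 genes (rows) in the 16 libraries (columns, grouped by number) relative to the gene's own 16-library mean. The number 1 columns are mostly above the mean and the number 2 columns below it; infrarenal 1 is weaker than the other number 1 libraries for ATF3, JUN and EGR2.

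The mean of the 10 centred log2 values summarised each library. It was 1.35, 1.09, 1.71 and 0.37 in number 1 from ascending to infrarenal, and -0.09, -1.08, -0.79 and -1.08 in number 2. It was 0.13, 0.98, 0.68 and -0.94 in number 3, and -0.56, -0.58, -0.84 and -0.34 in number 4. Number 3 was thus split, with its descending and suprarenal libraries high and its infrarenal library low, while number 4 was below 0 in every region, although infrarenal 4 lay above infrarenal 2 and infrarenal 3.

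The 10 genes tended to move together over the 16 libraries, some pairs only weakly. All 45 pairs had a positive Pearson correlation of log2 CPM, from 0.252 for JUN with JUNB to 0.946 for JUN with ATF3, with a median of 0.658. FOS with EGR1 had 0.944 and NR4A1 with IER2 had 0.928. By rank, the Spearman correlation ran from 0.062 for JUN with JUNB to 0.95 for FOS with EGR1. The points share libraries and numbers, so these values are a description. EGR2 and EGR3 were the least tied to the others, with medians of 0.552 and 0.550 over their 9 pairs.

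The variance of log2 CPM over the 16 libraries was split into region, number and remainder. Number held 84.1% of it for NR4A1, 74.3% for FOS, 68.3% for IER2, 65.3% for EGR1, 64.3% for FOSB, 60.6% for JUNB, 48.0% for JUN and 46.9% for ATF3. Region held 57.4% for EGR3 and number 14.0%, the reverse of the order in those 8 genes. EGR2 was left mostly to the remainder, 56.3%. The medians over the 10 genes were 9.04% for region and 62.4% for number, beside 17.9% and 25.6% over all genes tested. The biological coefficient of variation within a region, edgeR's measure of replicate spread, was 0.931 for FOSB, 0.869 for NR4A1 and 0.856 for FOS, and its median was 0.636 over the 10 genes against 0.308 over all genes.

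**Figure D3:**
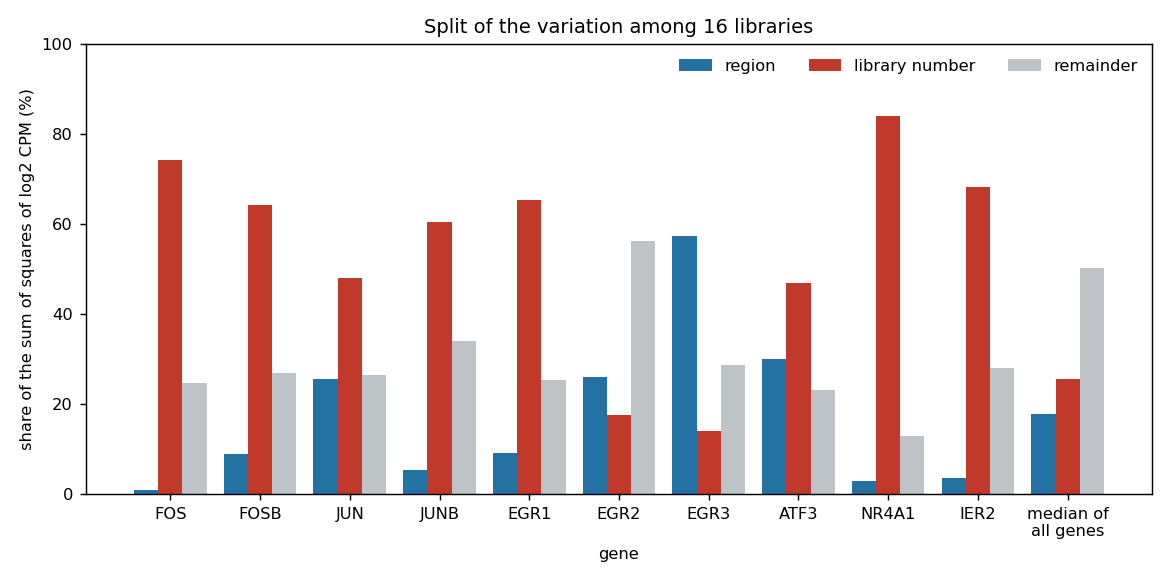
Share of the variance of log2 CPM over 16 libraries that falls to region, to library number and to the remainder, in percent, for each of the 10 genes and for the median of all genes tested. Number takes 84.1% for NR4A1 and region takes 57.4% for EGR3.

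The aortic regions were compared in a model with region alone. None of the 10 genes differed among the 4 regions, where 2.02% of all genes were called. Their adjusted p-values ran from 0.235 to 0.987 with edgeR, and DESeq2 and limma voom also called 0. With edgeR 1 gene had an unadjusted p under 0.05, beside 9.613% of all genes. The spread within a region was wide for most of them: FOS had 256 ± 189, 319 ± 302, 358 ± 413 and 189 ± 148 CPM (SD, n = 4) from ascending to infrarenal. These intervals overlap, and the order suprarenal, descending, ascending, infrarenal separated no neighbouring pair beyond its spread.

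The infrarenal aorta had the lowest mean of the 4 regions for 7 of the 10 genes, namely FOS, FOSB, JUN, EGR1, EGR2, EGR3 and ATF3. NR4A1 had its highest mean there, 202 ± 269 CPM, which rested on infrarenal 1, and JUNB and IER2 were lowest in the descending aorta. Set against the mean of the other 3 regions, 0 of 10 genes were called in the infrarenal aorta with edgeR, where 2.98% of all genes were. An unadjusted p under 0.05 was found for 3 of the 10, beside 13.72% of all genes. The median log2 difference was -0.84, beside 0.03 over all genes.

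EGR3 had 8.68 ± 4.59, 10.7 ± 3.68, 10.6 ± 3.995 and 3.66 ± 1.59 CPM from ascending to infrarenal. Its log2 difference in the infrarenal aorta was -1.44 (SE 0.37, 95% interval -2.23 to -0.64, edgeR adjusted p = 0.0506), just short of the threshold. It passed with the replicate block (adjusted p = 0.0305), with library totals alone (0.0265), with a CPM filter (0.0491) and with DESeq2 (0.0028), and also without ascending 4, suprarenal 2 or infrarenal 1. These were 4 of 7 alternative settings and 3 of 16 fits with 1 library left out. The highest adjusted p was 0.101 over the settings, and 0.160 over those fits, without infrarenal 2.

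ATF3 had a log2 difference of -1.91 in the infrarenal aorta (SE 0.74, edgeR adjusted p = 0.241), called by DESeq2 alone (0.0409). Its means were 209 ± 213, 189 ± 159, 185 ± 211 and 51.5 ± 28.8 CPM from ascending to infrarenal. JUN had -0.97 (SE 0.40, adjusted p = 0.282), EGR1 -1.42 (SE 0.74, 0.421) and FOSB -1.44 (SE 0.92, 0.529). FOS had -0.71 and EGR2 -0.72, with adjusted p of 0.776 and 0.477. NR4A1 had 0.46 with a 95% interval of -1.15 to 2.06, which turned negative (-1.11) without infrarenal 1. JUNB had -0.08 and IER2 0.01, and both changed sign when single libraries were left out.

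Among the 6 pairs of regions, 0 of 10 genes were called with edgeR in each. The background was 0.201% for infrarenal against suprarenal, 1.65% against descending and 3.49% against ascending. In that order, 3, 3 and 2 of the 10 genes had an unadjusted p under 0.05, beside 5.764%, 13.8% and 12.66% of all genes. The background was 0% for suprarenal against descending, 0.257% for suprarenal against ascending and 0.113% for descending against ascending. In each of these, 0 of the 10 genes had an unadjusted p under 0.05, beside 1.658%, 5.5% and 6.744% of all genes. DESeq2 called 1 of the 10 in infrarenal against suprarenal and 1 in infrarenal against descending, beside 167 and 624 of 15838 genes. The EGR3 log2 differences were -1.25 against ascending, -1.54 against descending and -1.53 against suprarenal, 3 comparisons that share the infrarenal libraries.

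**Figure D4:**
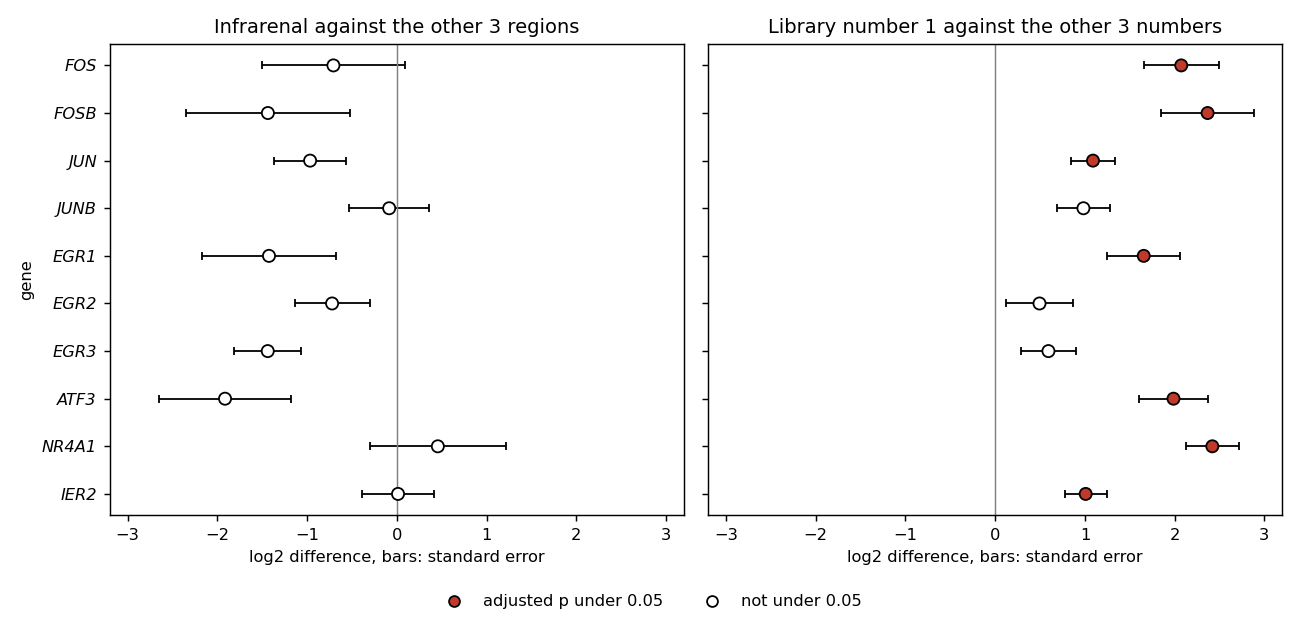
Log2 difference of each of the 10 genes with its standard error, for number 1 against the mean of the other 3 numbers and for the infrarenal aorta against the rest of the vessel. In the number contrast all 10 are above 0 and 7 pass the test, and in the infrarenal contrast 8 are below 0 and 0 pass.

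Other genes of the pathway were read from lists. These lists, like the members, were chosen with earlier results of these data known. Among all genes tested, 4.46% differed among the numbers and 2.45% were called higher in number 1. Of 10 tested AP-1 partners (12 listed), 0 differed among the numbers. FOSL2, a FOS relative, came nearest (adjusted p = 0.103 among the numbers, log2 0.41 in number 1). MAFF and MAFK, small MAF partners, had log2 differences of -0.71 and -1.002 in number 1 that did not pass (adjusted p 0.0983 and 0.0902). Of 4 tested EGR and NR4A relatives, NR4A2 alone was called, with a log2 difference of 1.51 in number 1 (adjusted p = 0.00620). Its number 1 libraries had 52.1, 35.6, 41.1 and 82.5 CPM and the other 12 had 10.9 to 26.4 CPM, with no overlap. NR4A3, the third receptor of that family, had -0.76 (adjusted p = 0.193).

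Of 26 tested further immediate-early genes, 4 differed among the numbers, namely CSRNP1, PER1, BHLHE40 and BTG2, and 3 were called higher in number 1. The shares over all genes were 4.46% and 2.45%, in that order. CSRNP1, a nuclear protein induced by AXIN1, was higher by a log2 difference of 0.98 (adjusted p = 0.00994), and PER1, a clock gene, by 0.64 (0.0302). IER3, a stress-induced survival gene named after its values were seen, was higher by 1.06 (0.0285). Of 17 tested feedback inhibitors, DUSP1, the phosphatase that inactivates MAP kinases, was higher by 1.41 (adjusted p = 0.00127), and TNFAIP3, an inhibitor of NF-kappaB signalling, was lower by a log2 difference of -1.41 (0.0216), where 1.68% of all genes were called lower. DUSP1 had a mean of 1927 CPM in number 1 and 768 CPM in the others. In number 2, PER1 (log2 -0.84, edgeR adjusted p = 0.0201) and BHLHE40 (-0.77, 0.0362) were called lower, where 0.647% of all genes were.

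Of 12 tested delayed and secreted targets, CCN1, a matrix protein induced by stretch and serum, was called, and it was higher in number 1 by 1.69 (adjusted p = 0.0196). Of 19 tested upstream kinases and serum response factors, ELK4, a partner of serum response factor, was called lower in number 1 by a log2 difference of -0.63 (0.0323), and 0 were called higher. Of 9 tested heat shock genes, HSPA6 (log2 -0.99, adjusted p = 0.0215) and HSPH1 (-0.72, 0.0400) were lower in number 1, and 0 were higher. Among all genes tested, 1.68% were called lower in number 1 and 2.45% higher, and 4.46% differed among the numbers. The median log2 differences of these 3 lists in number 1 were 0.32, -0.12 and -0.20. When each of the 16 libraries was left out in turn, NR4A2 and DUSP1 kept their call in number 1 in 16 of 16 fits. CSRNP1 lost it without ascending 1, and CCN1, TNFAIP3 and HSPA6 lost it without ascending 1 or suprarenal 1. ELK4 kept it in 9 fits, IER3 in 8, PER1 in 7 and HSPH1 in 4. In number 4, HSPA6 was called higher (log2 0.955, edgeR adjusted p = 0.0243), where 91 of all 15926 genes were.

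Between regions, 0 genes of each of these lists were called in the test among the 4 regions, where 2.02% of all genes were. In infrarenal against ascending, TRIB1, a pseudokinase among the feedback inhibitors (log2 -1.26, adjusted p = 0.0452), and CCL2, a chemokine among the delayed targets (-2.41, 0.0410), were lower. In that comparison 3.49% of all genes were called. CCL2 was near the floor, at 0.231 to 7.24 CPM over the libraries. Set against the mean of the other 3 regions, THBS1, thrombospondin 1, was higher in the infrarenal aorta (log2 1.33, adjusted p = 0.0382) and ZFP36L2, an RNA-binding inhibitor of unstable messages, was lower (-0.48, 0.0485). In that contrast 2.98% of all genes were called. The calls of THBS1 and ZFP36L2 were kept in 4 and 2 of the 16 fits that left out 1 library. The calls of TRIB1 and CCL2 against ascending were not followed over those fits.

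**Figure D5:**
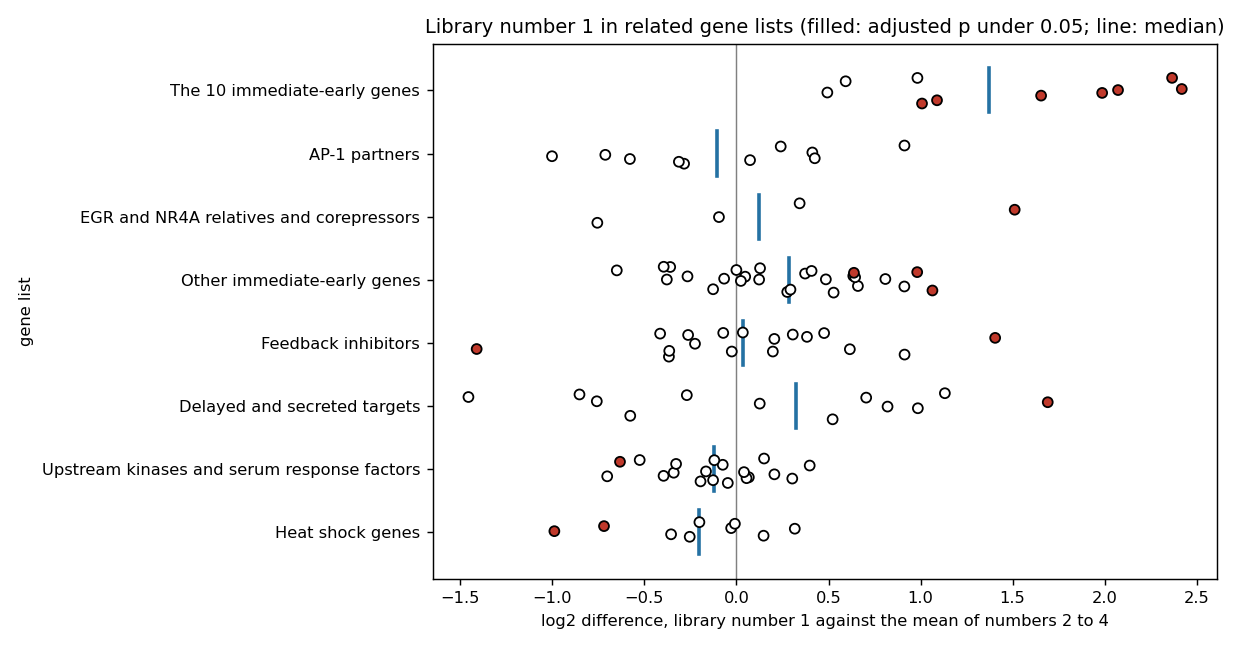
Log2 difference of every tested gene of the pathway lists, number 1 against the mean of the other 3 numbers, 1 row of points a list, with called genes marked and the median as a line. The 10 members have a median of 1.37, and the other lists have medians from -0.20 to 0.32.

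The genes whose pattern was most like that of the 10 were ranked by Pearson correlation with their mean centred log2 CPM over the 16 libraries, among 13252 genes with a symbol. The closest were ZFP36 (0.943), CSRNP1 (0.906), BTG2 (0.872), CCN1 (0.867) and GASK1A (0.863), then DUSP1 (0.855), LRRC8A (0.854), TAF12 (0.835), GARIN4 (0.821) and SEZ6L2 (0.805). The median over all ranked genes was 0.00, and 5 of the 10 closest were on the lists above. Those lists were chosen with earlier results of these data known, so the overlap is a description. GARIN4 and SEZ6L2 were near the floor, at no more than 1.88 and 4.26 CPM. GASK1A had 23.4, 23.3, 15.9 and 9.56 CPM in number 1 and was higher there by a log2 difference of 2.05 (adjusted p = 0.00115). ZFP36, an RNA-binding protein that destabilises messages of this kind, had the highest correlation but a log2 difference of only 0.48 in number 1 that did not pass (adjusted p = 0.0995).

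Markers of cell types were compared in the same way. Among the 4 numbers, 1 of 7 fibroblast markers and 1 of 2 tested mast cell markers were called and no other cell type marker was, where 4.46% of all genes were. Endothelial markers had negative log2 differences in number 1 for 9 of 9 genes, with a median of -1.18 and 0 called, and their summed level ran from 408 to 1050 CPM in number 1 and from 396 to 3435 CPM in the other 12. Fibroblast markers were negative for 7 of 7, with MFAP5 called lower (-1.64, adjusted p = 0.00184), and summed to 1213 to 4177 CPM in number 1 and 2252 to 5425 CPM in the others. MFAP5 was called higher in number 2 (1.23, edgeR adjusted p = 0.00639), where the median of the 7 fibroblast markers was -0.13. In number 1 again, the other lists were as follows. Smooth muscle markers were positive for 6 of 7 (median 0.39), macrophage markers for 7 of 8 (0.31) and cardiac muscle markers for 3 of 3 tested (1.01), with 0 called. The summed level of 6 cardiac muscle markers was 143 CPM in ascending 1 and 4.33 to 44.4 CPM in the other 15 libraries. Schwann cell markers were positive for 0 of 5 (median -0.39), lymphocyte markers for 1 of 4 (-0.94) and adipocyte markers for 3 of 7 (-0.16), with 0 called. Of 2 tested mast cell markers, 1 was positive in number 1 (median 0.76). This was the enzyme CPA3, which was called higher (log2 1.79, adjusted p = 0.0268) but did not pass without ascending 1, descending 1 or descending 3. The summed level of 4 mast cell markers was 3.95 to 35.5 CPM in number 1 and 1.45 to 22.1 CPM elsewhere. Neutrophil markers summed to at most 1.97 CPM, and the red blood cell marker in the table to at most 0.241 CPM. Ribosomal protein genes had positive differences in number 1 for 76 of 78, with a median of 0.47. That shift came with infrarenal 1: the mean centred log2 level of the 78 genes was 1.397 there, and 0.10, -0.20 and -0.02 in ascending 1, descending 1 and suprarenal 1. Without infrarenal 1 the number 1 mean was -0.04, beside -0.11 over the other 12 libraries. RPL37 was called higher in numbers 1 and 3 (log2 4.49 and 2.93) and lower in numbers 2 and 4 (-3.01 and -4.41). RPL14 was called lower in number 1 (-1.24) and higher in number 2 (0.68). In the infrarenal contrast endothelial markers were positive for 8 of 9, with ESAM called higher (1.72, adjusted p = 0.0126), adipocyte markers for 6 of 7 (median 0.99), smooth muscle markers for 4 of 7 (0.16), lymphocyte markers for 3 of 4 (0.20) and ribosomal protein genes for 76 of 78 (0.44). Macrophage markers were positive for 1 of 8 (median -0.35), Schwann cell markers for 1 of 5 (-0.48), fibroblast markers for 3 of 7 (-0.04), cardiac muscle markers for 0 of 3 (-1.16) and mast cell markers for 0 of 2 (-0.99), with 0 called. The part of these differences in the levels of the immediate-early genes was not tested.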

How the data were processed

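Bulk RNA of 16 aortic libraries was sequenced. The authors deposited raw counts for each NCBI GeneID, and the submitters' processing notes name fastp, HISAT2 2.0.5 and featureCounts 1.5.0-p3. The genome build used is not given in the sources used here. Library files and the series table held the same values. Of 32846 rows, 24 carry names of mitochondrial RNAs, and 24609 (74.9%, with 97.2% of the counts) matched a symbol in RefSeq's gene table for the MFA8v1.1 assembly, from which only names were taken. Library totals of 14402824 to 21407514 counts set the precision.

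Genes were kept with filterByExpr (minimum count 10, minimum total 15), scaled with TMM and tested with edgeR 4.0.16 (R 4.3.3), using its quasi-likelihood F test. The region model had 12 residual degrees of freedom, and the model with region and number had 9. Benjamini-Hochberg adjustment ran over all 15926 genes, and an adjusted p under 0.05 was called. The SE is the log2 difference divided by the root of F, and 95% intervals use residual plus prior degrees of freedom. Log2 CPM used a prior count of 2. The fit was also run on simulated counts. Those were drawn independently for each gene and library, without the shared pattern of same-number libraries, and no result here rests on them.

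The 10 members and the gene lists were chosen with earlier results of these data known. Every member is named in each main comparison. From each list up to 4 genes with the smallest p in the tests among regions and among numbers could be named. List genes called in number 1, or in the infrarenal aorta against the rest, are also named. Likeness names the 10 genes closest by Pearson correlation. The contrasts of 1 number with the other 3 were added after the data were seen. Alternatives were a replicate block, RLE factors, library totals alone, no filter, a CPM filter, DESeq2 1.42.0, limma 3.58.1 voom and each library left out.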

Additional observations from a re-analysis of the deposited data

Results flagged for a closer look

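On the CPM scale, 1 library lay far from the other 3 of its region in 7 of 40 groups of 4 libraries (10 genes in 4 regions), by a gap to the nearest of 0.832 of the group's range or more. Chance gives such a gap in about 1 group in 20 where values are normally distributed and groups independent, which does not hold here: CPM is skewed and the 10 genes share the same libraries. On the log2 CPM scale 2 of the 7 groups, FOS and IER2 in infrarenal 1, still had such a gap (0.863 and 0.846 of the range), and the other 5 had 0.733 to 0.817. All 7 are number 1 libraries, and 5 are infrarenal 1. In infrarenal 1, FOS had 410.7 CPM against 104.2 to 125.7 in the other 3, NR4A1 had 604.5 CPM against 47.37 to 93.57, and JUNB had 273.0 CPM against 81.32 to 106.7. In the same library EGR1 had 271.3 CPM against 137.5 to 160.0, and IER2 had 157.6 CPM against 54.83 to 64.56. NR4A1 in ascending 1 had 367.0 CPM against 74.85 to 112.4, and ATF3 in suprarenal 1 had 501.0 CPM against 67.73 to 97.65. Scaled by its library total alone, infrarenal 1 had 302.0 CPM of FOS and 444.6 CPM of NR4A1.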

How the results depend on the processing

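The counts of members called in the test among the 4 regions, and in the pairs infrarenal against ascending, suprarenal against descending, suprarenal against ascending and descending against ascending, were 0 under every alternative run. DESeq2 gave 1 in infrarenal against descending, 1 in infrarenal against suprarenal, 2 in infrarenal against the rest, 8 among the numbers, 5 in number 2 and 3 in number 4. Its calls over all genes were 624, 167, 852, 2394, 615 and 538, in the same order. Library totals alone gave 1 in infrarenal against the rest, 2 among the numbers and 4 in number 1, and the CPM filter gave 1 in infrarenal against the rest. Leaving out 1 library gave 1 to 6 among the numbers, 0 to 1 in infrarenal against the rest, 1 to 7 in number 1 and 0 to 1 in number 2. Signs turned for IER2 in the infrarenal contrast with library totals (-0.18) and over the libraries left out (-0.47 to 0.17), for JUNB (-0.67 to 0.10) and for NR4A1 (-1.11 to 0.78, negative only without infrarenal 1); the cause was not tested.

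Libraries of the same number correlated at -0.173 to 0.575 (median 0.344, 24 pairs, 19 over 0.1) in their deviations from the region means. The 72 other pairs had -0.499 to 0.606, with a median of -0.0947. Because deviations were taken from region means, the values of same-number and other pairs are not independent. For 15 of 16 libraries the correlation averaged over the other regions was highest for the same number, a hint from the data and not from the design. With the replicate block the count in infrarenal against the rest was 1, EGR3, and it was 0 in the other region comparisons. Over all genes the block moved the calls among regions from 322 to 532, infrarenal against ascending from 556 to 843, infrarenal against descending from 263 to 432, infrarenal against suprarenal from 32 to 84, suprarenal against ascending from 41 to 76 and descending against ascending from 18 to 62. DESeq2 called 825 genes among regions and 2394 among numbers, against 322 and 711 with edgeR, and 1768 against 657 in number 1. Low counts limit EGR2, with 8 to 59 counts a library.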
